A study of Mus musculus with 12 samples.

Results

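The lysyl oxidase family of the mouse has 5 genes, Lox, Loxl1, Loxl2, Loxl3 and Loxl4. They were taken by gene name from the 4 deposited tables of a heart RNA-seq study, and all 5 were found among the 18604 genes listed there. RNA was sequenced from hearts of male C57Bl/6J mice aged 12 weeks, fed a control diet or one free of branched-chain amino acids (BCAA-free). Feeding began 4 days before a sham operation or transverse aortic constriction (TAC), a banding of the aorta that raises the load on the left ventricle, and went on until the hearts were collected 1 week after it. Crossing the 2 diets with the 2 operations gave 4 groups of 3 libraries each. The labels name no transgene or drug. They also do not state that each library is a different animal, so the tests here see the variation among these libraries and nothing wider, and that variation may be technical.

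Lysyl oxidases are secreted copper enzymes that oxidise lysine side chains of collagen and elastin, after which the chains join into covalent crosslinks that stiffen the matrix. Lox is made as a proenzyme whose propeptide is removed by the protease Bmp1. Loxl1 is known for its part in elastic fibres, while Loxl2, Loxl3 and Loxl4 carry scavenger receptor domains in place of a propeptide, and Loxl2 also acts on the collagen IV of basement membranes. In the heart these genes are best known from fibrosis, where matrix-producing fibroblasts express them.

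The enzymes share a short motif rich in histidines that holds the catalytic copper, shown here as a stretch that all 5 members have. It is printed for 4 of the 5 members. The Lox window is not printed, although it enters the counts of shared bases given after the sequences. Each line gives 33 bases of coding sequence, 5′ to 3′ on the gene's strand, from the GENCODE release M21 transcript, with the histidine codons in capitals.
Loxl1: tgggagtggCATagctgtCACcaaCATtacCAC
Loxl2: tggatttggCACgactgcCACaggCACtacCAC
Loxl3: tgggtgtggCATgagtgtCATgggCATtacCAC
Loxl4: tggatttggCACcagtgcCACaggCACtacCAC
Each window crosses an exon junction. On GRCm38 the Loxl1 window lies at chr9:58293720-58294381 on the minus strand, in exons 3 and 4 of 7. The Loxl2 window lies at chr14:69682316-69689037 on the plus strand, in exons 10 and 11 of 14. The Loxl3 window lies at chr6:83049995-83050125 on the plus strand, in exons 10 and 11 of 14. The Loxl4 window lies at chr19:42598807-42599899 on the minus strand, in exons 11 and 12 of 15. In this window Loxl2 and Loxl4 had 31 of 33 bases in common and Lox and Loxl1 had 32, while the other pairs had between 21 and 25. Over the whole principal transcripts the longest run of bases shared by any pair was 32 (Lox and Loxl1), and the shortest such maximum was 11 (Lox and Loxl4).

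The genes lie on 5 different chromosomes. In GRCm38 Lox (ENSMUSG00000024529) spans chr18:52516067-52529867, Loxl1 (ENSMUSG00000032334) chr9:58287738-58313186, Loxl2 (ENSMUSG00000034205) chr14:69609068-69695834, Loxl3 (ENSMUSG00000000693) chr6:83034173-83052562 and Loxl4 (ENSMUSG00000025185) chr19:42593982-42612813. An exon of Loxl3 overlaps Htra2 on the opposite strand, so reads of the 2 genes may be shared where strand was not used. Htra2, a mitochondrial protease, changed by a log2 of 0.02 with TAC on the control diet and by −0.08 with TAC on the BCAA-free diet, with adjusted p-values of 0.94 and 0.508 (limma). Antisense transcripts also overlap exons of Lox and of Loxl2, and these are not analysed here.

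Libraries held 74206246 to 110452636 reads. Every member was read in all 12 libraries, with 342 to 11025 reads for Lox, 1432 to 12073 for Loxl1, 586 to 7455 for Loxl2, 359 to 3929 for Loxl3 and 65 to 273 for Loxl4. At its lowest, Loxl4 had a counting error of 12.4%, against 5.41% or less for the others. By the SD of log2 deviations over genes, library 3 of control diet TAC departed most from its own group. It had 0.337, against 0.218 to 0.275 in the other 11, so results that rest on it are also given without it. Its chi-square per degree of freedom against its group mates was 156.3 and 166.2, but control diet sham 2 had 176.5 and 178.9. Reads of Rn7sk, Rmrp and Rpph1, scaled to the library total (cpm), also differed between libraries. They stood at 115.5 in control diet sham 2, and at 63.6 and 76.1 in BCAA-free TAC 1 and 3. They were 19.3 in control diet TAC 3 and 2.06 to 7.79 in the rest. The part of this difference in the results was not tested. Of the reads, 17.9 to 19.9% were mitochondrial in control diet TAC and 21.8 to 27.1% in the other groups. All 8 cardiomyocyte markers looked for were measured in every library.

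Levels per library are given as normalized reads, that is reads divided by 1 size factor per library set over all 12. Lox was read at 651, 556 and 512 in control diet sham and at 8117, 8692 and 5392 in control diet TAC. On the other diet it was 502, 575 and 431 in sham hearts and 1740, 984 and 1594 in TAC hearts. Both TAC groups lay above both sham groups, the 2 sham groups overlapped, and the lowest control diet TAC library was well above the highest BCAA-free TAC library.

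Loxl1, the elastic fibre enzyme, was read at 3216, 2285 and 2899 in control diet sham and at 8888, 9216 and 5784 in control diet TAC. In BCAA-free hearts it was 1784, 2123 and 1806 after sham and 3455, 2356 and 3172 after TAC. The BCAA-free sham libraries were thus all below control diet sham, and the BCAA-free TAC libraries overlapped the range of control diet sham.

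Loxl2, which acts on fibrillar collagen and collagen IV, was read at 1596, 1169 and 1699 in control diet sham and at 5489, 6686 and 4691 in control diet TAC. Its BCAA-free values were 702, 986 and 739 in sham and 1807, 1332 and 1888 in TAC hearts. The order of the groups was that of Loxl1, with BCAA-free sham below all others and BCAA-free TAC overlapping control diet sham.

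Loxl3, needed for collagen crosslinking in the palate and spine, was read at 645, 619 and 636 in control diet sham and at 2893, 3540 and 1551 in control diet TAC. The BCAA-free sham hearts gave 436, 541 and 453, and the BCAA-free TAC hearts 892, 638 and 840. Its control diet sham libraries were close together (coefficient of variation 2.04%), while its control diet TAC libraries spread widely (38.1%), with library 3 the low one.

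Loxl4, an amine oxidase of the same domain type as Loxl2, was the scarcest member, at 70.9, 100.4 and 139 in control diet sham and 177, 277 and 145 in control diet TAC. On the BCAA-free diet it was 65.9, 93.1 and 93.3 after sham and 111, 102 and 158 after TAC. The gap between its highest control diet sham and its lowest control diet TAC library was a few reads, and the 2 TAC groups overlapped.

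**Figure D1:**
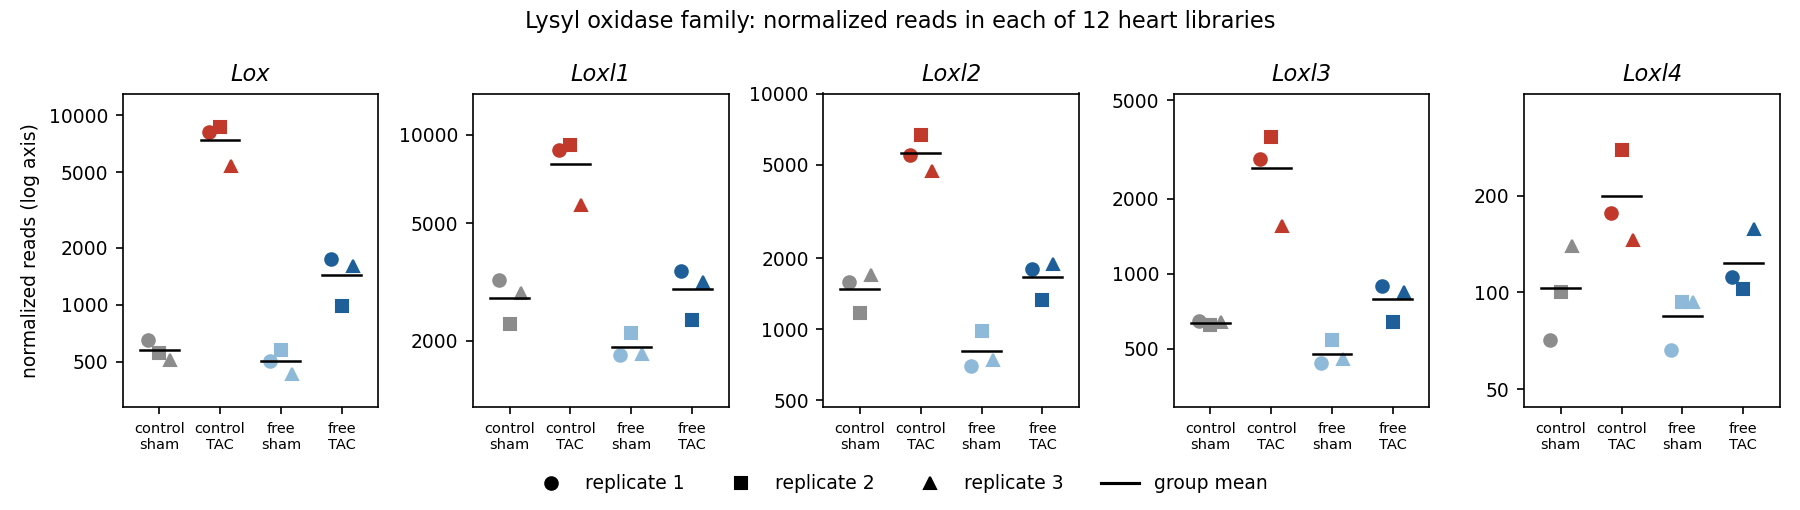
Normalized reads of each family member (log axis, 1 panel a gene) in the 12 libraries, with symbols for the replicate number and a bar at the group mean; free stands for BCAA-free. Lox sits between 5392 and 8692 in control diet TAC and between 984 and 1740 in BCAA-free TAC, while Loxl4 reaches at most 277.

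The first comparison asks how 1 week of TAC changed the family on the control diet. Lox rose 12.6-fold, Loxl3 3.94-fold, Loxl2 3.76-fold and Loxl1 2.79-fold, so 4 of 5 members passed the test, all upward, where 14.8% of the 18305 genes tested passed in either direction, 9.17% upward and 5.64% downward (limma on log2(value + 1), with a Benjamini-Hochberg adjusted p below 0.05 and the 6 libraries of a pair in their own fit). The log2 change of Lox was 3.66 ± 0.176 (SE, adjusted p = 2.57e-05), the 13th highest of the genes tested. Loxl1 changed by 1.48 ± 0.19 (adjusted p = 0.00191), Loxl2 by 1.91 ± 0.169 (adjusted p = 0.000444) and Loxl3 by 1.98 ± 0.25 (adjusted p = 0.00177). Loxl4 had a log2 value of 0.93 ± 0.303 and missed the threshold (adjusted p = 0.0721), with a 95% interval from 0.25 to 1.62. The groups of all 5 members did not overlap, as in 18.5% of genes with higher TAC libraries. Without control diet TAC library 3 the log2 values were 3.86, 1.69, 2.03, 2.32 and 1.13 for Lox, Loxl1, Loxl2, Loxl3 and Loxl4, and Loxl4 then passed (adjusted p = 0.028). Loxl4 also passed by DESeq2 on recovered reads (adjusted p = 0.0168) and in a joint limma fit of all 12 libraries (0.0272).

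The substrates and helpers of these enzymes moved as follows in the same comparison, beside a median log2 value of −0.02 over all genes tested. Of 12 fibrillar collagen and elastin genes 9 rose and none fell, with a list median of 2.03. Col1a1 and Col3a1, which encode the chains of collagens I and III, changed by 2.45 ± 0.271 and 2.36 ± 0.259 (adjusted p = 0.000955 and 0.000894, limma). Elastin (Eln) changed by 1.85 ± 0.349 (adjusted p = 0.0121). Of 10 matrix partners that bind the enzymes or place them on fibres 8 rose, with a median of 1.33. Among these partners, periostin (Postn), which binds Bmp1 at the matrix, changed by 3.52 ± 0.242, fibronectin (Fn1) by 2.30 ± 0.427, fibulin-5 (Fbln5), which ties Loxl1 to elastic fibres, by 1.01 ± 0.147, and fibulin-4 (Efemp2), which brings Lox to elastin, by 1.21 ± 0.113. Their adjusted p-values (limma) were 0.000144, 0.0139, 0.00326 and 0.000532.

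Of 8 proteases that cut the propeptides of Lox or collagen, and their enhancers, 3 rose, with a median of 0.79, and 5 passed without control diet TAC library 3. They were Bmp1 (0.80 ± 0.163), its enhancer Pcolce (1.28 ± 0.0958) and Adamts2 (1.64 ± 0.222), the protease of the procollagen amino end (limma, adjusted p = 0.013, 0.000227 and 0.00244). Of 9 lysyl hydroxylases and their partners 6 rose, with a median of 0.50. Plod2, the hydroxylase of the telopeptide lysines, changed by 0.57 ± 0.108 (adjusted p = 0.00943, limma). Of 12 ligands, receptors and transcription factors known to act on the family 7 rose, with a median of 0.54, among them Tgfb2 at 1.24 ± 0.117 and Ctgf at 1.81 ± 0.265 (limma, adjusted p = 0.000532 and 0.00336). Of 6 collagen IV genes 2 rose, with a median of 0.53, but none passed when any one library other than control diet TAC 3 was left out, and 4 passed without that library.

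No change passed the test among 9 genes of copper supply in the cell, not all of them for the secretory pathway, whose median was 0.03 (limma). In this list 2 had an unadjusted p below 0.05, edgeR called 0, DESeq2 called 1, and 1 passed without control diet TAC library 3. Of 4 other crosslinking enzymes only the transglutaminase Tgm2 passed, at 0.68 ± 0.13 (adjusted p = 0.00998, limma). The copper amine oxidases outside the family were listed for 2 genes, Aoc2 and Aoc3, at 0.09 ± 0.238 and 0.31 ± 0.241, and neither passed (adjusted p = 0.846 and 0.429, limma). Without control diet TAC library 3 one of them did (1 of 2).

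The second comparison asks the same on the BCAA-free diet. Lox rose 2.79-fold, Loxl2 2.06-fold, Loxl3 1.64-fold and Loxl1 1.55-fold, so that 4 of 5 members passed, all upward, where 7.72% of 17611 genes passed in either direction, 3.31% upward and 4.41% downward. The log2 changes were 1.48 ± 0.226 for Lox (adjusted p = 0.0146), 0.63 ± 0.143 for Loxl1 (adjusted p = 0.041), 1.04 ± 0.168 for Loxl2 (adjusted p = 0.0116) and 0.71 ± 0.132 for Loxl3 (adjusted p = 0.00788), all by limma. Loxl4, at 0.54 ± 0.222, did not pass (adjusted p = 0.164). None of the 5 members had overlapping groups, as in 13.4% of genes with higher TAC libraries. These calls lean on single libraries. Lox missed the threshold without BCAA-free sham library 1 (adjusted p = 0.0777) or 3 (0.053), and Loxl2 without BCAA-free sham 3 (0.0537) or BCAA-free TAC 1 (0.0501). Loxl1 missed it without any one of the sham libraries (0.0528 to 0.125), BCAA-free TAC 1 (0.0719) or BCAA-free TAC 3 (0.118). Loxl3 passed without each library in turn, and in the joint limma fit of all 12 libraries neither Loxl1 (0.117) nor Loxl3 (0.155) passed.

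Among the genes around the family, the lists gave these counts on this diet. Of 11 fibrillar collagen and elastin genes tested 4 rose, with a median of 1.00 beside 0.01 over all genes. Eln changed by 1.00 ± 0.0701 (adjusted p = 5.19e-05, limma) and Col3a1 by 1.53 ± 0.279 (adjusted p = 0.0497), while Col1a1, at 1.14 ± 0.29, missed the threshold (adjusted p = 0.102). That count was 1 without BCAA-free sham library 1 or 3, 2 without BCAA-free TAC 1 or 3 and 7 without BCAA-free TAC 2. Of 8 propeptide proteases and enhancers 4 rose, with a median of 0.47, among them Bmp1 (0.44 ± 0.0553) and Pcolce (0.53 ± 0.0965), and 2 passed without BCAA-free sham 3 (limma, adjusted p = 0.000989 and 0.0102 for the named genes). Of 10 matrix partners 4 rose, with a median of 0.46, among them Efemp2 (0.42 ± 0.0887, adjusted p = 0.0149) and Postn (1.66 ± 0.298, adjusted p = 0.0489). The partners' count ran from 0 (without BCAA-free sham 1 or 3) to 8 (without BCAA-free TAC 2), with 1 without BCAA-free TAC 3 and 2 without BCAA-free sham 2 or BCAA-free TAC 1.

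Plod2 had a log2 value of −0.04 ± 0.0641 on this diet (adjusted p = 0.789, limma), and 1 of the 9 lysyl hydroxylase genes passed, P3h3, at 0.30 ± 0.081 (adjusted p = 0.0459). The copper chaperone Atox1, which hands copper to the secretory pathway pumps, rose by 0.26 ± 0.0701 (adjusted p = 0.0424) and was the 1 of 8 copper genes that passed. Both of these single calls were lost without any one of 5 libraries. Of the 12 ligands and factors 2 rose and 1 fell, namely Tgfb3 (0.52 ± 0.0889), Snai1 (0.88 ± 0.233) and Smad3 (−0.33 ± 0.0698), with adjusted p-values of 0.00459, 0.0397 and 0.015 (limma). That list kept 1 call without BCAA-free sham library 1 or 2.

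**Figure D2:**
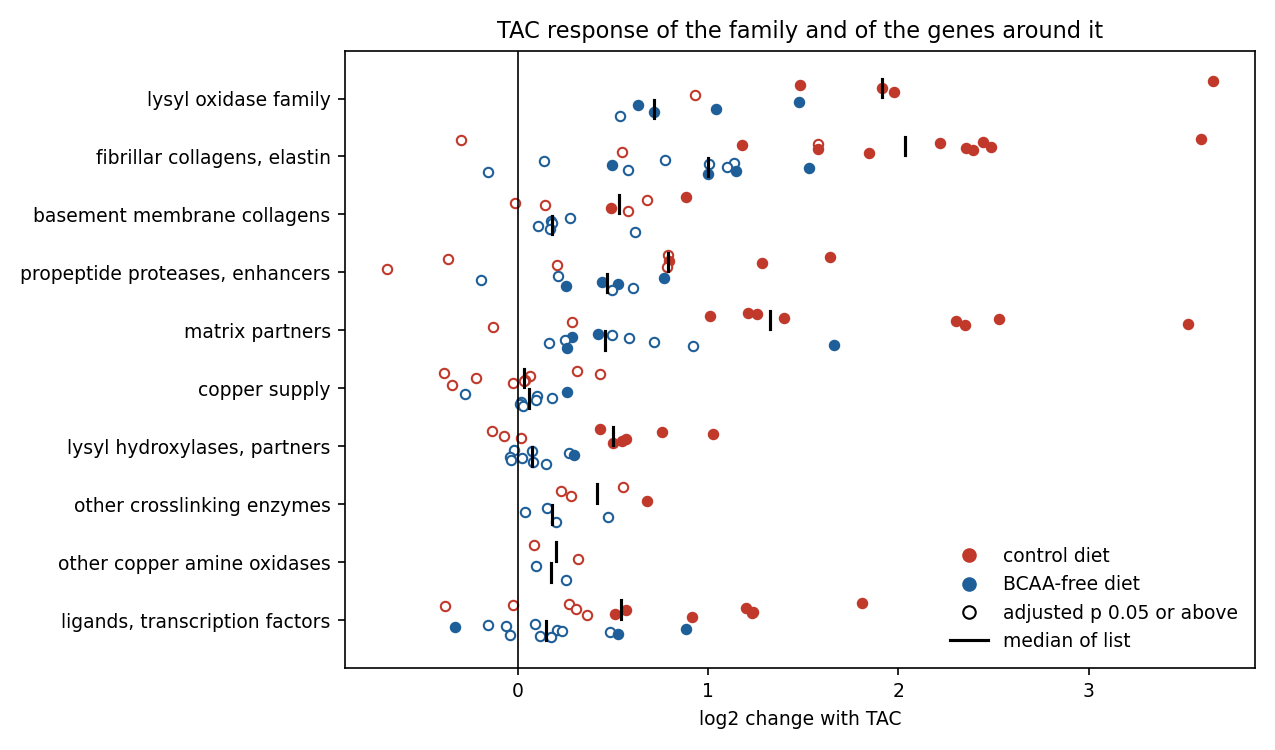
Log2 change with TAC (horizontal axis) of the 5 family members and of each gene in 9 lists around them, on the control diet and on the BCAA-free diet; filled points passed the limma test and black ticks mark list medians. The fibrillar collagen median is 2.03 on the control diet and 1.00 on the BCAA-free diet, and the copper supply medians are 0.03 and 0.06.

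In sham hearts the diet was compared without pressure load. Loxl2 fell by 0.88 ± 0.174 on the log2 scale (adjusted p = 0.0409, limma), the 1 of 5 members that passed, where 3.54% of 17862 genes passed in either direction, 2.27% downward and 1.27% upward. Loxl1, at −0.55 ± 0.125, and Loxl3, at −0.42 ± 0.105, were just outside the threshold (adjusted p = 0.053 and 0.0574). For these 3 members all BCAA-free libraries were below all control diet libraries, as in 12.9% of genes. Lox had a log2 value of −0.20 ± 0.13 with a 95% interval from −0.48 to 0.09 (adjusted p = 0.45), and Loxl4 of −0.26 ± 0.262 with an interval from −0.84 to 0.32 (adjusted p = 0.631). The Loxl2 call was lost without control diet sham library 1 (adjusted p = 0.115) or 3 (0.118), or without BCAA-free sham library 1 (0.139) or 3 (0.144), and with scaling that leaves out mitochondrial reads (0.0552). In the authors' deposited table for this pair, Loxl1 (adjusted p = 0.0003213) and Loxl3 (adjusted p = 0.01122) were past 0.05 as well, at log2 fold changes of −0.56 and −0.41.

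Of 10 fibrillar collagen and elastin genes tested in sham hearts 4 fell and none rose, with a median of −0.58 beside 0.00 over all genes. Col1a1 fell by 1.10 ± 0.0829 (adjusted p = 0.000673, limma), while Col3a1, at −1.55 ± 0.259, was just outside (adjusted p = 0.0517) and Eln, at −0.37 ± 0.223, did not pass (adjusted p = 0.441). Lox reads made up 10.1, 10.3 and 7.72% of the Col1a1 reads in control diet sham and 18.1, 18.5 and 15.7% in BCAA-free sham, so this ratio was higher in every BCAA-free sham library. The same held for 3 other members: Loxl1 reads were 42.1 to 50% of Col1a1 reads in control diet sham and 64.5 to 68.4% in BCAA-free sham, Loxl3 reads 9.59 to 11.4% and 15.8 to 17.4%, and Loxl4 reads 1.1 to 2.1% and 2.38 to 3.39%. The ratio of Loxl2 overlapped between these groups (21.6 to 25.6% and 25.4 to 31.8%). Since Col1a1 itself fell, any gene that fell less has a higher ratio. How many of all genes have such a ratio was not counted, so these values are not shown to be particular to the family. In TAC hearts the ratio of Lox overlapped between the diets, at 18.1 to 27.2% on the control diet and 19.0 to 24.2% on the BCAA-free diet. In sham hearts 3 of 8 propeptide proteases and enhancers fell, Pcolce (−0.46 ± 0.0629), Adamts2 (−0.64 ± 0.108) and Bmp1 (−0.32 ± 0.0603), with adjusted p-values of 0.00716, 0.0157 and 0.0214 (limma). None of these protease calls was left without BCAA-free sham library 1, and 1 was left without BCAA-free sham 3 or control diet sham 3. Of 10 matrix partners 3 fell, among them Postn by 0.88 ± 0.166 (adjusted p = 0.0449), and 1 was left without BCAA-free sham library 1 or 3. Plod2 stood at −0.05 ± 0.0867 (adjusted p = 0.818). Tgfb1, the ligand best known to raise Lox, fell by 0.52 ± 0.0763 (adjusted p = 0.009), and 2 of the 12 ligands and factors passed, a count that became 0 without BCAA-free sham 1 and 1 without any other library except control diet sham 2.

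The fourth comparison sets the diets side by side in TAC hearts. Lox fell by 2.37 ± 0.231 on the log2 scale (adjusted p = 0.000483), Loxl2 by 1.74 ± 0.161 (adjusted p = 0.000328), Loxl3 by 1.68 ± 0.268 (adjusted p = 0.00383) and Loxl1 by 1.39 ± 0.192 (adjusted p = 0.00174), by limma. These were 4 of 5 members, where 16.8% of 18039 genes passed in either direction, 10.5% downward and 6.23% upward. The same 4 had groups that did not overlap, as in 19.2% of genes with lower BCAA-free libraries. Loxl4, at −0.65 ± 0.266, did not pass (adjusted p = 0.126), with an interval from −1.25 to −0.06 and overlapping groups. Without control diet TAC library 3 the values were −2.58, −1.60, −1.86, −2.02 and −0.85 for Lox, Loxl1, Loxl2, Loxl3 and Loxl4, and Loxl4 passed (adjusted p = 0.0192).

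Of 12 fibrillar collagen and elastin genes 10 fell with the diet in TAC hearts, with a median of −1.66 beside 0.02 over all genes. Col1a1 changed by −2.41 ± 0.337, Col3a1 by −2.37 ± 0.255 and Eln by −1.21 ± 0.292 (limma, adjusted p = 0.00233, 0.000579 and 0.0242), and the count was 6 without control diet TAC 1 or BCAA-free TAC 2. Of 10 matrix partners 9 fell, with a median of −1.47, among them Postn (−2.74 ± 0.29), Fn1 (−1.99 ± 0.421) and Efemp2 (−1.05 ± 0.104), with adjusted p-values of 0.000686, 0.0148 and 0.000456 (limma). Of 9 lysyl hydroxylases and partners 7 fell, with a median of −0.62, including Plod2 by 0.65 ± 0.0919 (adjusted p = 0.00195). Of 8 proteases and enhancers 4 fell and 1 rose, and Bmp1 was at −0.67 ± 0.158 (adjusted p = 0.0186). That count of 5 became 2 without control diet TAC 1 or any one BCAA-free TAC library, and 3 without control diet TAC 2. Of 12 ligands and factors 8 fell, with Tgfb1 at −0.86 ± 0.116 and Tgfb2 at −0.95 ± 0.157 (limma, adjusted p = 0.0016 and 0.0039), and 5 without control diet TAC 2, BCAA-free TAC 2 or BCAA-free TAC 3. No copper supply gene of 8 passed by limma (2 at an unadjusted p below 0.05, 0 by edgeR, 1 by DESeq2, and 2 without control diet TAC 3).

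**Figure D3:**
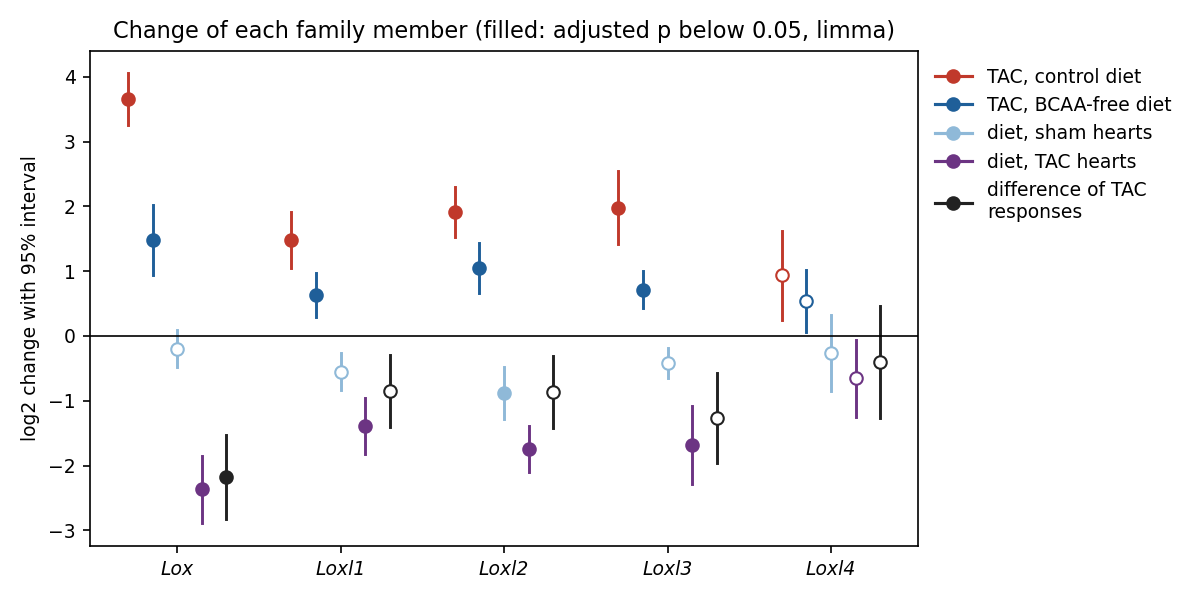
Log2 change of each family member with its 95% interval in the 4 pairwise comparisons and in the difference between the diets in the response to TAC; filled points have an adjusted p below 0.05 by limma. Lox is the only member filled for the difference of responses, at −2.18, and Loxl2 the only one filled for diet in sham hearts, at −0.88.

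A last test, in 1 model of all 12 libraries, set the TAC response on one diet against that on the other. The response of Lox was smaller on the BCAA-free diet, with a difference in log2 change (BCAA-free minus control diet) of −2.18 ± 0.299 and a 95% interval from −2.83 to −1.53 (adjusted p = 0.01, limma). It was the 1 of 5 members that passed, where 0.675% of 17493 genes passed, 0.503% in this direction and 0.171% in the other, and it ranked 11 by p-value. The other members had differences of −1.26 ± 0.324 for Loxl3 (adjusted p = 0.0859), −0.87 ± 0.257 for Loxl2 (adjusted p = 0.127), −0.85 ± 0.26 for Loxl1 (adjusted p = 0.143) and −0.40 ± 0.402 for Loxl4 (adjusted p = 0.71). Their 95% intervals ran from −1.96 to −0.56, −1.42 to −0.31, −1.41 to −0.29 and −1.26 to 0.47 in that order. Without control diet TAC library 3 the difference was −2.38 for Lox (adjusted p = 0.002), and Loxl3, at −1.61, and Loxl1, at −1.06, passed too (adjusted p = 0.000705 and 0.0199). By DESeq2 on recovered reads Loxl1, Loxl2 and Loxl3 passed as well (adjusted p = 0.0308, 0.0268 and 0.00254). This contrast and the 4 pairwise ones use the same libraries, so the values for one gene are not independent of each other.

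Among the listed genes Efemp2 (−0.79 ± 0.131, adjusted p = 0.0221), Pcolce (−0.76 ± 0.141, adjusted p = 0.0291) and Plod2 (−0.61 ± 0.124, adjusted p = 0.0433) also had a smaller TAC response on the BCAA-free diet (limma). They were 1 of 10 matrix partners, 1 of 8 proteases and enhancers and 1 of 9 lysyl hydroxylases and partners. Without control diet TAC 3 those counts were 6, 3 and 6, and the hydroxylase count was 0 without any other one of the 12 libraries. The partner count was 2 without BCAA-free TAC 1 and 0 without control diet sham 2 or 3, BCAA-free sham 1 or 2, or BCAA-free TAC 2 or 3. The protease count was 0 without any library other than control diet TAC 3, BCAA-free sham 3 or BCAA-free TAC 1. No fibrillar collagen or elastin gene of 11 passed by limma, where 6 had an unadjusted p below 0.05, edgeR called 0, DESeq2 called 5, and 8 passed without control diet TAC 3. Col1a1 stood at −1.31 ± 0.437 (adjusted p = 0.191) and Eln at −0.85 ± 0.432 (adjusted p = 0.406).

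Levels of the 5 genes were compared with each other as normalized reads per kilobase of exon. In control diet sham Loxl1 had the highest mean level per kilobase, 849 ± 144 (SD, n = 3), followed by Loxl2 at 275 ± 52.0, Loxl3 at 138 ± 2.81, Lox at 120.0 ± 14.9 and Loxl4 at 24.6 ± 8.12. Lox (107 to 136) and Loxl3 (135 to 140) overlapped there, and the other neighbours did not. In control diet TAC the order was Loxl1 at 2415 ± 574, Lox at 1549 ± 369, Loxl2 at 1040.1 ± 186, Loxl3 at 578 ± 220.5 and Loxl4 at 47.4 ± 16.3. On this scale Lox had moved from near the bottom of the order to second place. Its range (1129 to 1819) touched those of Loxl1 (1754 to 2795) and Loxl2 (868 to 1237). The order depends on the length used, since Lox has 4778 exon bases but 1233 coding bases, and Loxl1 3297 and 1821. Per kilobase of coding sequence Lox would lie above Loxl3 in control diet sham and above Loxl1 in control diet TAC. It would also lie above Loxl2 in both BCAA-free groups.

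On the BCAA-free diet the sham order was Loxl1 at 578 ± 57.6 per kilobase, Loxl2 at 149.7 ± 28.6, Lox at 105 ± 15.01, Loxl3 at 104 ± 12.3 and Loxl4 at 19.97 ± 3.74, with Lox and Loxl3 overlapping. After TAC it was Loxl1 at 908 ± 173, Loxl2 at 310.0 ± 55.6, Lox at 301 ± 83.9, Loxl3 at 172 ± 29.2 and Loxl4 at 29.4 ± 7.03, and Lox (206 to 364) overlapped Loxl2 (246 to 349). The level per kilobase summed over the 5 genes was 1184 to 1564 in control diet sham, 4122 to 6686 in control diet TAC, 886 to 1086 in sham hearts of the BCAA-free diet and 1330 to 1967 in its TAC hearts.

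Lox took a larger share of the family's summed level in the TAC groups than in the sham groups. It held 8.61% of the summed level in control diet sham and 27.5% in control diet TAC, against 11% and 17.3% in sham and TAC hearts of the BCAA-free diet. Its libraries did not overlap between groups in any of the 4 pairs that differ in diet or surgery alone, and each pair gave a two-sided exact permutation p of 0.1, the smallest that 3 against 3 libraries allow. Loxl1 had the largest share per kilobase of exon, and the size of each share depends on the length used, as the order does. It stood at 60.2% and 42.9% on the control diet and 60.5% and 52.9% on the BCAA-free diet, in sham and TAC hearts respectively. Its libraries did not overlap in 3 of the 4 pairs, all but diet in sham hearts (p = 0.9), and each of the 3 had an exact permutation p of 0.1. Loxl2 was lower in BCAA-free sham (15.6%) than in control diet sham (19.5%) and in BCAA-free TAC (18.1%), again with no overlap and an exact permutation p of 0.1, and stood at 18.8% in control diet TAC. Loxl4 held 1.78% after sham and 0.837% after TAC on the control diet, 2.09% and 1.72% on the BCAA-free diet, and control diet TAC did not overlap control diet sham or BCAA-free TAC (exact permutation p = 0.1 for each). Loxl3 had group means between 9.9 and 10.8%, and its libraries did not overlap between BCAA-free sham and TAC (exact permutation p = 0.1). In all, 20 shares were compared and none can pass a threshold of 0.05 at this number of libraries.

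**Figure D4:**
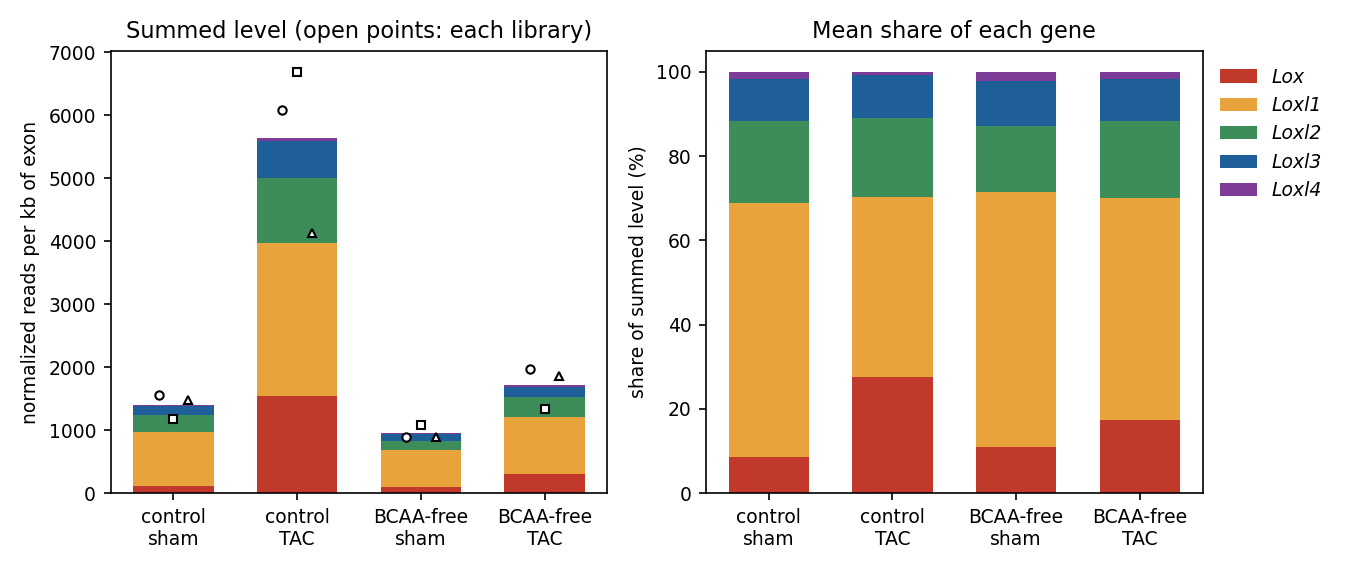
Left, normalized reads per kilobase of exon summed over the 5 genes, as stacked group means with an open point for each library; right, mean share of each gene in that sum (%). The Lox share rises from 8.61% to 27.5% with TAC on the control diet and from 11% to 17.3% on the BCAA-free diet.

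The genes whose levels followed each member most closely were found by Pearson's r of log2 normalized reads over the 12 libraries, among 12850 genes. These values describe a likeness over 4 groups of libraries that differ in treatment, so the group means make up much of each r. For Lox they were Thbs4, a thrombospondin, (r = 0.996), Cthrc1 (0.995), Mfap5, a microfibril protein, (0.994), Olfml3 (0.992) and Cilp (0.992). Loxl1 was most like Bgn, the proteoglycan biglycan, (0.996), Adamts2 (0.994), Fstl1 (0.994), Carhsp1 (0.993) and Aspn (0.993). Loxl2 was closest to Col3a1 (0.992), Col5a2 (0.991), Rhbdf1 (0.99), Igfbp7 (0.989) and Carhsp1 (0.989), and Loxl3 to Dnm1 (0.994), Tmem119 (0.993), Fn1 (0.992), Dpysl3 (0.992) and C1qtnf6 (0.991). Over the 9 libraries without control diet TAC, r with the first gene of each list was 0.976 for Lox, 0.972 for Loxl1, 0.974 for Loxl2 and 0.971 for Loxl3.

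Loxl4 had no such close companion. Its highest r was 0.957 with Prr3, then 0.953 with Pus7l, 0.934 with Asb6, 0.919 with Itpkc and 0.918 with Ddr1, a collagen receptor, and counting error weighs more in this scarce gene. Between members r was highest for Loxl1 and Loxl2 (0.986) and lowest for Lox and Loxl4 (0.811). Without the control diet TAC libraries r fell to 0.702 for Lox and Loxl1 and stayed at 0.967 for Loxl1 and Loxl2.

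Whole hearts hold many cell types, and in such samples fewer cells of a type and less RNA per cell cannot be told apart. Fibroblast markers (9 of 9 measured) summed to 141247 to 168123 normalized reads in control diet sham, 142864 to 159589 in control diet TAC, and, on the BCAA-free diet, 142654 to 148717 after sham and 152987 to 157403 after TAC. The sums overlapped between sham and TAC on the control diet, with means of 154059 and 153880. They did not overlap on the BCAA-free diet, where they were higher after TAC, with means of 146365 and 154607. With TAC on the control diet 5 of 9 fibroblast markers rose and 2 fell, with a list median of 0.41, where 9.17% of all genes rose and 5.64% fell. Mfap5 (2.32), Lum (1.33), Pi16 (0.86), Tcf21 (0.45) and Dcn (0.41) rose in log2 change, Scara5 (−0.94) and Gsn (−0.61) fell, and Dpt (0.38) and Pdgfra (−0.01) did not pass (limma). That count of 7 was 3 without control diet sham 2 or 3 or control diet TAC 1, and 4 without control diet TAC 2. On the BCAA-free diet 4 of 9 rose and 1 fell, with a median of 0.11, and 3 passed without BCAA-free sham 1 or 3. Of all genes on that diet 3.31% rose and 4.41% fell.

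Summed markers of some other cell types also rose with TAC on the control diet. Macrophage markers (9 of 9 measured) summed to 24358 to 32302 after sham and 45574 to 47784 after TAC on the control diet, and to 23989 to 26960 and 27435 to 34843 on the BCAA-free diet, with no overlap on either. Of these markers 6 of 9 rose with TAC on the control diet and 8 of 9 fell with the diet in TAC hearts. Over all genes 9.17% rose with TAC on the control diet. With the diet in TAC hearts 10.5% of all genes fell and 6.23% rose. Epicardial sums (6 of 6) were 633 to 939 and 1465 to 1716 on the control diet, and 450.2 to 741 and 812 to 986 on the BCAA-free diet, also with no overlap. By single epicardial markers 2 of 6 rose with TAC on the control diet and none passed on the BCAA-free diet (limma). With the diet in TAC hearts 2 epicardial markers rose and 3 fell. Krt18, with means of 50.4 after sham and 536 after TAC, made up much of the control diet rise. Valve and cartilage sums (5 of 6) were 715 to 1261 and 2691 to 4372 on the control diet, and overlapped on the BCAA-free diet (575 to 1070 and 1012 to 1451).

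Smooth muscle and pericyte sums (7 of 7) were lower after TAC on both diets, at 114760 to 122973 and 72109 to 98149 on the control diet and 116157 to 123626 and 102879 to 112009 on the BCAA-free diet. The single markers of this list were split. With TAC 2 rose and 2 fell on the control diet (median −0.34), and 2 rose and 1 fell on the BCAA-free diet (median −0.03, limma). Over all genes 9.17% rose and 5.64% fell on the control diet, and 3.31% rose and 4.41% fell on the BCAA-free diet. Cnn1, the scarcest, lay at 249 to 402 after sham and 987 to 1320 after TAC on the control diet. Cardiomyocyte sums (8 of 8) were lower after TAC on the control diet, at 5477644 to 5968777 and 4273184 to 5073868, and overlapped on the BCAA-free diet. Atrial sums (4 of 5) overlapped on the control diet and were 8074 to 18341 after sham and 24451 to 28598 after TAC on the BCAA-free diet, with no overlap. Adipocyte sums (6 of 6) likewise overlapped on the control diet and were 787 to 1185 and 1413 to 4277 on the BCAA-free diet. Endothelial and red blood cell sums overlapped between sham and TAC on both diets. None of the markers summed was at 0 reads in any library, 1 valve and 1 atrial marker were not in every table and were left out of the sums, and the part of these cell types in the results was not tested.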

How the data were processed

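RNA-seq libraries of mouse heart, 12 in all, were analysed from 4 deposited tables, 1 for each pair of groups differing in 1 factor. Each table carries, per the file headers, a normalized signal for 6 libraries, and the authors' own log2 fold change, p-value and adjusted p-value. Tools named by the submitters' processing notes are STAR 2.5.2b, Subread 1.5.2, Trimmomatic 0.36 and DESeq2, with GRCm38 and mm10 as builds. Not given in the sources used here are the task of each tool, the annotation and the use of strand. The deposited signal is reads divided by a size factor set in each table separately: dividing out the step gave whole reads within 0.0001 for 100% of 431838 values. Tables hold genes with at least 61 reads over 6 libraries. Since the deposited values are normalized, not raw counts, the main test was limma-trend.

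The test (limma 3.58.1, R 4.3.3, robust empirical Bayes) ran on log2(value + 1), a scale that understates changes of low genes, for all genes with a mean of at least 10. P-values were Benjamini-Hochberg adjusted over all of them. The difference of responses used 12 libraries and 4 group means, each TAC group and its sham taken from the table that holds both. Library levels are scaled by factors estimated from all 12 together, so their ratios can differ from the fold changes. Alternatives were edgeR 4.0.16 and DESeq2 1.42.0 on recovered reads, other filters, pseudocounts and scalings, a joint fit, a replicate block and leaving out each library. The test was checked on simulated data. Positions and exon lengths are from GENCODE release M21 (18547 of 18604 gene IDs found). Ccn2 is listed as Ctgf, and Tgm3 and Aoc1 are not analysed here.

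The family, the lists and the alternatives were chosen with earlier results of these data known. The rule for naming other genes took the 3 smallest p-values of a list in each comparison, 8 matrix genes throughout (Col1a1, Col3a1, Eln, Bmp1, Fn1, Postn, Fbln5 and Plod2), and the 5 genes most like each member among those with a mean of at least 50. Htra2, Krt18 and the fibroblast markers lie outside that rule. Htra2 and Krt18 were chosen after their values were seen, and all 9 fibroblast markers are given.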

Additional observations from a re-analysis of the deposited data

Results flagged for a closer look

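These 6 genes are those of the family and the lists whose response to TAC differed between the diets in the test of that difference itself (limma, 12 libraries, differences as BCAA-free minus control diet on the log2 scale). Over all genes 118 of 17493 passed that test. Lox had a difference of −2.18 (adjusted p = 0.01). Krt18, a keratin of epicardial cells, had −2.75 (adjusted p = 0.00919): it stood at 428 to 641 normalized reads in control diet TAC, at 49.5 to 51.3 in control diet sham and at 49.2 to 116 in BCAA-free TAC. Mfap5, a microfibril protein of fibroblasts that was also among the genes most like Lox, had −1.21 (adjusted p = 0.0242), with 7932 to 10330 normalized reads in control diet TAC and 2498 to 3769 in BCAA-free TAC. This call of Mfap5 was lost without control diet sham 2 or 3, control diet TAC 2, BCAA-free sham 1 or 2, or BCAA-free TAC 2 or 3. Efemp2 had −0.79 (adjusted p = 0.0221), Pcolce −0.76 (adjusted p = 0.0291) and Plod2 −0.61 (adjusted p = 0.0433). The Plod2 call was lost without any one library other than control diet TAC 3. Those of Efemp2 and Pcolce were each lost without any one of several libraries. Of Plod2, the 3 BCAA-free TAC libraries (2771 to 3084) lay within the range of control diet sham (2715 to 3420), while the control diet TAC libraries (4467 to 4908) lay above it.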

How the results depend on the processing

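Over 455 recomputed values of single members, 423 kept their side of the threshold, 13 newly passed, 19 no longer passed and none changed sign. The rise of Lox with TAC on the control diet passed under all 17 alternatives, and its difference of responses under all 23 (highest adjusted p 0.0406). The number of members that passed with TAC on the BCAA-free diet fell from 4 to 2 in the joint fit of all 12 libraries and to 2 with a replicate block, and ran from 1 to 4 with a library left out. For diet in sham hearts it went from 1 to 2 by edgeR, 3 by DESeq2, 0 with scaling that leaves out mitochondrial reads and 0 with a replicate block, and from 0 to 2 with a library left out. For the difference of responses DESeq2 called 4 members, and leaving out a library 1 to 3. With TAC on the control diet and with diet in TAC hearts, 4 to 5 members passed with a library left out.

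Counts over all genes depended more on the setting. With TAC on the control diet 2710 genes passed, 4404 in the joint fit, 1354 to 4678 with a library left out. With TAC on the BCAA-free diet the values were 1360, 302 in the joint fit, 623 with a replicate block, and 546 to 1257. For diet in sham hearts they were 633, 1530 by DESeq2, 149 in the joint fit, 276 with a replicate block, and 50 to 1071. For diet in TAC hearts they were 3025 and 1195 to 6025. For the difference of responses they were 118, 809 by DESeq2, 287 with scaling that leaves out mitochondrial reads, 50 with a replicate block, and 16 to 1755. The highest of these came without control diet TAC library 3 for the comparisons that use it. The lowest came without control diet sham 3, BCAA-free sham 3, BCAA-free sham 1, BCAA-free TAC 2 and BCAA-free sham 2 in the order given, and the highest for diet in sham hearts without control diet sham 2. The cause was not tested. Scaling without mitochondrial reads moved the median of all genes from 0.02 to −0.15 for diet in TAC hearts and from 0.02 to −0.10 for the difference of responses. It moved the split of higher and lower calls from 1678 and 1032 to 1884 and 554 (TAC, control diet), from 583 and 777 to 492 and 1153 (TAC, BCAA-free), from 227 and 406 to 116 and 430 (diet, sham), from 1124 and 1901 to 458 and 3049 (diet, TAC) and from 30 and 88 to 22 and 265 (difference of responses).

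Over all genes, replicate numbers gave no sign of a pairing of the samples. Same-numbered libraries of different groups deviated from their group means with r from −0.17 to 0.112, above 0.1 in 1 of 18 pairs. A pairing that moves few genes would not be seen in this check. For Loxl4, with 65 to 273 reads a library, depth limits what can be seen.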
